A study of Mus musculus with 29 samples.

Results

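The genes described here are 2 corticosteroid receptors and 8 genes of the glucocorticoid response: Nr3c1, Nr3c2, Fkbp5, Sgk1, Pdk4, Tsc22d3, Zbtb16, Plin4, Errfi1 and Cdkn1a. A gene was taken where a probe set on the array was annotated with its symbol alone. Of the 10 listed genes, 9 met this rule, each with 1 probe set, out of 19938 genes tested in all. The only probe set of Cdkn1a carried several symbols, so Cdkn1a was not analysed here. RNA came from the caudate nucleus of HdhQ150 mice and wild-type littermates on the 129/Ola x C57BL6/J background, with 1 array per mouse and 29 mice in all. HdhQ150 models Huntington's disease by a knock-in: the mouse huntingtin gene, under its own promoter, carries an expanded CAG repeat. The labels do not say whether the mice held 1 or 2 copies. HdhQ150 mice numbered 5 at 6 months, 6 at 12 months and 4 at 18 months, and wild-type mice numbered 5, 5 and 4 at those ages. Mice of different ages were different animals.

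Levels are RMA values on the log2 scale, and a difference of 1 on it is a factor of 2. Precision is limited by the number of arrays, whose medians lay between 6.91 and 7.05. Mouse WT-454, aged 12 months, differed from its group as a whole: its array correlated with theirs at 0.945 on average, where the remaining 12-month wild-type mice had 0.975 to 0.978. By the labels 23 mice were female, including all 8 of the 18-month groups, and 6 were male. HdhQ150 mouse 1023 at 6 months is labelled female but had Xist at 5.95 and Eif2s3y at 8.30, inside the range of the labelled males. Defining markers of the labelled tissue were present on every array (Penk 11.33 to 12.81, Drd1 8.95 to 10.36 and Ppp1r1b 10.59 to 11.76), while Slc17a7, a marker of cortical excitatory neurons, ranged from 6.82 to 11.77 between mice. In bulk tissue, fewer cells of a type and less RNA per cell cannot be told apart.

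Glucocorticoids from the adrenal gland enter neurons and glia and bind the mineralocorticoid receptor with high affinity and the glucocorticoid receptor with lower affinity. The occupied receptors move to the nucleus, bind short palindromic elements in DNA as dimers, and induce a set of genes that many tissues share. Among them, Fkbp5 feeds back on the receptor, and others act on metabolism, ion transport and inflammation. Circulating hormone was not measured here.

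Of the 9 genes, 2 differed between the genotypes at a single age each. Sgk1 was 1.35-fold lower in HdhQ150 mice at 12 months, and Pdk4 was 1.29-fold higher in HdhQ150 mice at 18 months. With limma and Benjamini-Hochberg adjustment over all genes at 0.05, 0 of the 9 genes passed at 6 months, where 0.0251% of all genes did, and 0 had an unadjusted p under 0.05, where 13.7% did. At 12 months 1 of 9 passed, against 0.938% of all genes, and at 18 months 1 of 9 passed, against 0.135% of all genes. The HdhQ150 minus wild-type differences of the 9 genes had a median of 0.0148 at 6 months (0.00623 for all genes), -0.0273 at 12 months (0.00592 for all genes) and 0.116 at 18 months (-0.00373 for all genes). At 18 months the difference was above 0 for 9 of the 9 genes, with 1 past the threshold. It was also above 0 for 9 of 9 measured receptor coregulators, a list described below, with 0 past the threshold. All these differences rest on the same 8 mice, so their directions are not separate observations. The values of the 2 genotypes did not overlap for 0 of the 9 genes at 6 months (3.18% of all genes), 0 at 12 months (1.59%) and 2 at 18 months, Pdk4 and Plin4 (3.7%). Averaged over the 3 ages, 0 of the 9 genes passed, where 3.06% of all genes did, and 5 had an unadjusted p under 0.05, where 14.2% of all genes did.

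**Figure D1:**
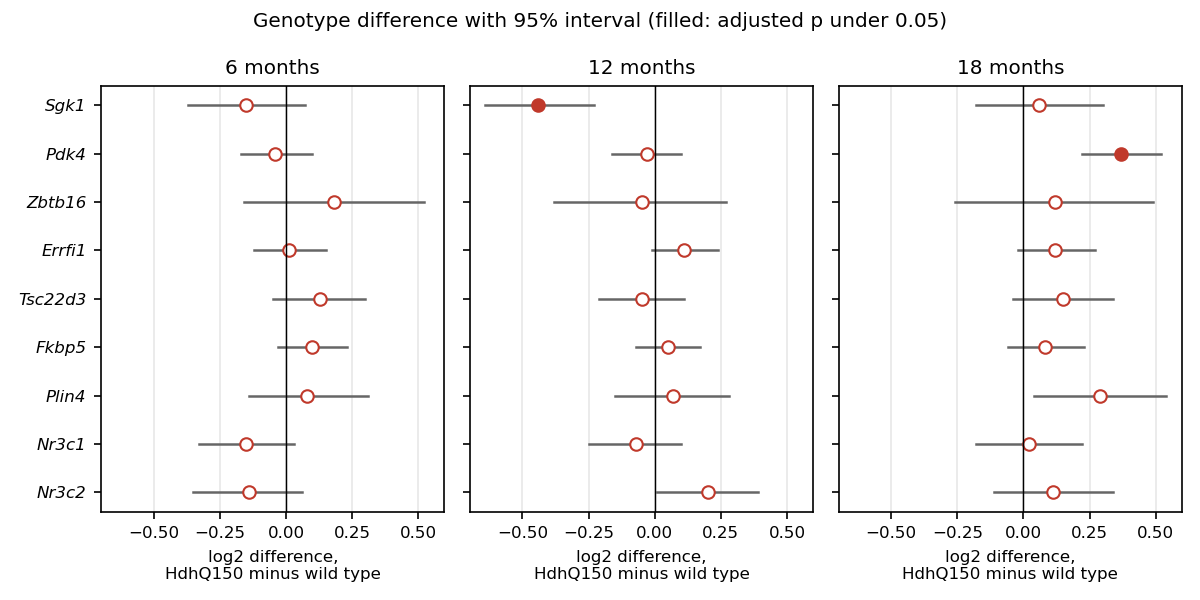
Log2 difference, HdhQ150 minus wild type, of the 9 genes at 6, 12 and 18 months, with bars for the 95% interval of the limma fit and filled points where the adjusted p was under 0.05. The filled points are Sgk1 at 12 months (-0.44) and Pdk4 at 18 months (0.37), and at 18 months every point lies at or right of 0.02.

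The age comparisons held more calls than the genotype comparisons, as they did across the array. Within HdhQ150 mice, 2 of the 9 genes passed between 12 and 6 months (23.1% of all genes), 1 between 18 and 12 months (5.79%) and 0 between 18 and 6 months (4.65%), where 4 of the 9 had an unadjusted p under 0.05 (18.5%). Within wild-type mice, 3 of 9 passed between 12 and 6 months (25.7% of all genes), 3 between 18 and 12 months (5.87%) and 2 between 18 and 6 months (6.27%). The counts between 12 and 6 months were therefore near the share of all genes. The genes that passed in some comparison were Sgk1, Pdk4, Zbtb16 and Errfi1. The labels give no dissection or array batch, so a batch that follows age cannot be told apart from age. Markers of the tissue's main cell types moved with age too, and their part in the members' age differences was not tested. Between 12 and 6 months 5 of 8 striatal projection neuron markers rose in each genotype, 6 of 9 astrocyte markers fell in HdhQ150 and 5 in wild type, and 5 of 7 oligodendrocyte markers rose in HdhQ150 and 2 in wild type. Between 18 and 12 months 7 of 8 projection neuron markers fell in HdhQ150 and 6 in wild type, and 3 of 9 astrocyte markers rose in HdhQ150 and 2 in wild type. The 12-month groups enter both the comparison with 6 months and that with 18 months, so those comparisons share samples.

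**Figure D2:**
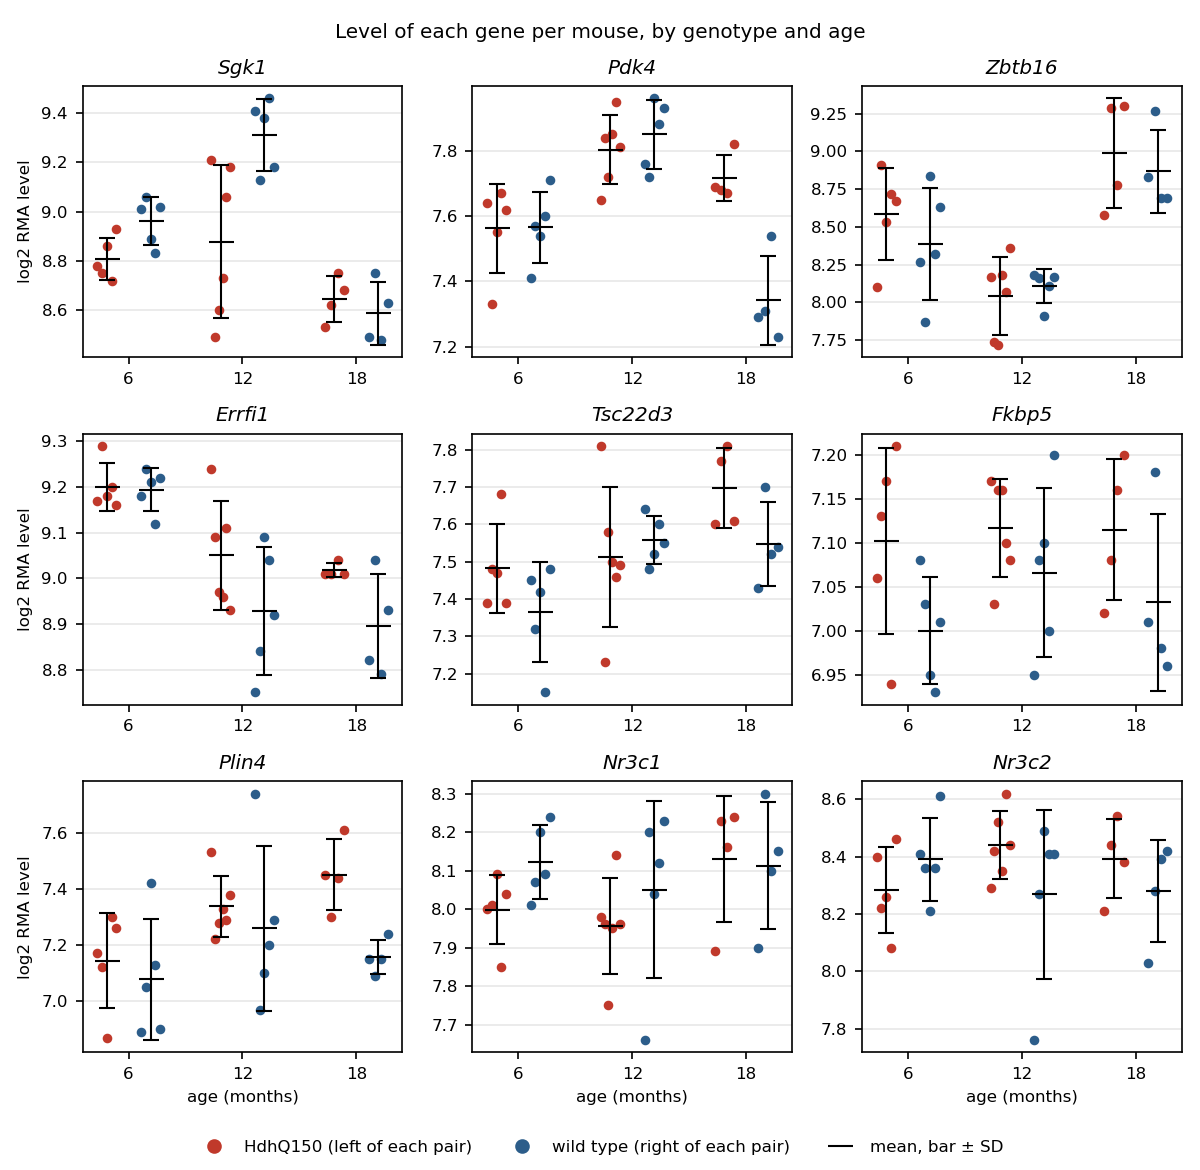
Log2 RMA level of each of the 9 genes in each mouse (points) at 6, 12 and 18 months, HdhQ150 left of wild type in each pair, with the group mean and a bar of 1 SD on each side; each panel has its own axis. Sgk1 is highest in wild-type mice at 12 months (mean 9.31), Pdk4 is lowest in wild-type mice at 18 months (mean 7.34), and Zbtb16 is lowest in both 12-month groups (means 8.04 and 8.10).

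The 2 receptors showed no call. Nr3c1 (probe set 10458569, chromosome 18), the glucocorticoid receptor, had group means between 7.96 in HdhQ150 mice at 12 months and 8.13 in HdhQ150 mice at 18 months, a span of 0.17 beside a pooled within-group SD of 0.15. Its genotype difference was -0.15 (95% interval -0.33 to 0.03) at 6 months, -0.07 (-0.25 to 0.10) at 12 months and 0.02 (-0.18 to 0.22) at 18 months, with limma adjusted p of 0.472, 0.945 and 0.999. At 6 months it ran from 7.85 to 8.09 in HdhQ150 mice and from 8.01 to 8.24 in wild-type mice, which overlap. Mouse WT-454 had the lowest Nr3c1 of all mice, 7.66, against 8.04 to 8.23 in the remaining 12-month wild-type mice. In fits that leave out 1 mouse, the 12-month difference of Nr3c1 ran from -0.18 to -0.02, with limma adjusted p of 0.227 or above.

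Nr3c2 (probe set 10572949, chromosome 8), the mineralocorticoid receptor, had a span of group means of 0.18 and the same pooled within-group SD, 0.18. At 12 months it read 8.29, 8.43 and 8.62 (lowest, median and highest) in 6 HdhQ150 mice, against 8.27, 7.76, 8.49, 8.41 and 8.41 in wild-type mice. The lowest of these wild-type values, 7.76, is that of mouse WT-454, the array that stood apart, and the groups overlap. The difference at 12 months was 0.20 (95% interval 0.01 to 0.39, limma adjusted p = 0.536), at 6 months -0.14 (-0.35 to 0.06) and at 18 months 0.11 (-0.11 to 0.34). Without mouse WT-454 the 12-month difference of Nr3c2 was 0.07 (adjusted p = 0.675). The 12-month difference minus the 6-month one was 0.34 (0.06 to 0.63, limma adjusted p = 0.715), and 0.19 without mouse WT-454 (adjusted p = 0.868). Labelled females, mouse 1023 among them, exceeded labelled males by 0.18 in Nr3c2 (0.02 to 0.34, limma adjusted p = 0.509). This was 0.13 with mouse 1023 entered as male (adjusted p = 0.706) and 0.07 without mouse WT-454 (adjusted p = 1.0). In that comparison 0 of the 9 genes passed, against 0.0451% of all genes, with 2 at an unadjusted p under 0.05 (9.71%).

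Fkbp5 (probe set 10449452, chromosome 17) encodes an immunophilin that joins the receptor-Hsp90 complex and lowers its affinity for hormone, and in many tissues it is among the most hormone-responsive transcripts. Here it had the narrowest range of the 9 genes, 6.93 to 7.21 over the 29 mice, and it was the 1 gene of the 9 whose mean level lay below the median of all genes. At 18 months it read 7.02, 7.08, 7.16 and 7.20 in HdhQ150 mice, against 7.01, 7.18, 6.98 and 6.96 in wild-type mice, which overlap. The genotype difference was 0.10 (95% interval -0.03 to 0.23) at 6 months, 0.05 (-0.07 to 0.17) at 12 months and 0.08 (-0.06 to 0.23) at 18 months, with limma adjusted p of 0.502, 0.956 and 0.993. No age comparison of Fkbp5 passed, and its differences between ages lay between -0.03 and 0.06.

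Sgk1 (probe set 10362073, chromosome 10) encodes the serum- and glucocorticoid-regulated kinase, which acts on ion channels and transporters. Its gene has several annotated starts, and the 250 bases before 1 of them hold the palindromic receptor element, so that window is shown. RefSeq's table for GRCm38.p6 gives it at chr10:21993640-21993889 on the + strand, and the capitals mark the match to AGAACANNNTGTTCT, from 189 to 175 bases before the start.
Sgk1: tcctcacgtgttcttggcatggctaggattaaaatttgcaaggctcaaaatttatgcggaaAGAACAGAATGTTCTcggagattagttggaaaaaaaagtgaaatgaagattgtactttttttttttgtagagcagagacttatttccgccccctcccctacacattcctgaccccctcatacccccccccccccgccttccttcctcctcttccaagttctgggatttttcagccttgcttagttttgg
This 15-letter pattern, read the same on both strands and searched with 0 mismatches, occurred in 3 of 32851 such windows of all genes (0.00913%). The 9 genes had 15 windows over 7 genes, and this was the only one with the full match. Its 6-letter arm AGAACA, on either strand, occurred in 4 of the 15 windows (3 of 6 for Sgk1 and 1 of 3 for Tsc22d3) and in 16.1% of all windows, each full match counting here too. A match is a run of letters and not a measured binding site, and Nr3c1 and Zbtb16 had no window in the table.

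At 12 months Sgk1 read 9.21, 8.49, 8.60, 8.73, 9.06 and 9.18 in HdhQ150 mice, against 9.41, 9.13, 9.38, 9.46 and 9.18 in wild-type mice. Of the HdhQ150 mice, 3 lay at 8.73 or below and 3 at 9.06 or above, and 2 of the upper 3 lay within the wild-type range. The means were 8.88 ± 0.31 for the 6 HdhQ150 mice and 9.31 ± 0.15 for the 5 wild-type mice (± SD), and limma gave a difference of -0.44 (SE 0.101, adjusted p = 0.0264). With mice WT-454 and 1023 left out, the difference was -0.42 (adjusted p = 0.0432). It did not pass without HdhQ150 mouse 453 (-0.36, adjusted p = 0.0542), 462 (-0.38, 0.101) or 464 (-0.41, 0.0823), or without mouse WT-488 (-0.42, 0.0734) or WT-508 (-0.40, 0.0888). It also did not pass in labelled females alone (-0.40, adjusted p = 0.0671), in a fit of the 2 groups alone (-0.44, 0.21) or with p adjusted over all probe sets (-0.44, 0.0652).

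The genotype difference of Sgk1 at the other ages was -0.15 (95% interval -0.37 to 0.07) at 6 months and 0.06 (-0.18 to 0.30) at 18 months. The difference at 18 months minus that at 12 months was 0.49 (0.18 to 0.81), with an unadjusted p of 0.00347 and a limma adjusted p of 1.0. Within wild-type mice, Sgk1 was 1.64-fold lower at 18 months than at 12 months. The 18-month wild-type mice read 8.49, 8.75, 8.48 and 8.63, all below the lowest 12-month wild-type mouse at 9.13, and the difference was -0.72 (SE 0.113, limma adjusted p = 0.000158). It was 0.36 higher at 12 than at 6 months in wild type (SE 0.106, adjusted p = 0.0147), where the 6-month mice read 9.01, 9.06, 8.89, 8.83 and 9.02, all below the 12-month ones. Without mouse WT-454 that rise was 0.33 and did not pass (adjusted p = 0.0514). Between 18 and 6 months in wild type the difference was -0.36 (adjusted p = 0.0604), and it passed without HdhQ150 mouse 451 (-0.38, 0.0312) or 462 (-0.37, 0.0439) and without mouse WT-401 (-0.41, 0.0417) or WT-1011 (-0.38, 0.0484), with no sex term (-0.37, 0.0404) and with array weights (-0.40, 0.0214). In HdhQ150 mice no age comparison of Sgk1 passed, and the 18-month mice read 8.53, 8.62, 8.75 and 8.68 against the wide 12-month range of 8.49 to 9.21 (difference -0.22, adjusted p = 0.295).

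Immediate early genes, which respond to neuronal activity within minutes, had calls in the comparisons in which Sgk1 passed and in others. The mean of 10 of them lay between 8.17 and 8.51 in HdhQ150 mice at 12 months, against 8.48 to 8.78 in wild-type mice at 12 months, and 2 of the 10 fell, Egr2 (-1.04) and Homer1 (-0.54), with 0 higher. Over all genes 0.938% passed between the genotypes at 12 months. Within wild type, 8 of 10 fell between 18 and 12 months (5.87% of all genes passed), and the list mean was 7.66 to 8.24 at 18 months. Between 12 and 6 months 2 of 10 rose there (25.7% of all genes passed). In HdhQ150, where Sgk1 had no age call, 2 of 10 fell between 18 and 12 months (median of the 10, -0.422), Egr2 (-0.84) and Fosb (-0.41), and 3 fell between 18 and 6 months. The shares of all genes that passed in these HdhQ150 comparisons were 5.79% and 4.65%. Of 12 measured clock genes, a list that leaves out Per1, which also fell and is described with the hormone-induced genes, 1 fell in HdhQ150 mice at 12 months, Ciart (-0.69, limma adjusted p = 8.28e-05), and the list mean was 8.73 to 8.91 in HdhQ150 mice, against 8.88 to 9.04 in wild-type mice. The part of either list in the Sgk1 difference was not tested. Cortical excitatory neuron markers averaged 6.51 ± 0.74 in HdhQ150 mice and 7.19 ± 0.67 in wild-type mice at 12 months (SD, n = 6 and 5), and with their mean as a covariate, a setting chosen after seeing the data, the Sgk1 difference was -0.45 (limma adjusted p = 0.0418).

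Pdk4 (probe set 10543017, chromosome 6) encodes a mitochondrial kinase that inhibits pyruvate dehydrogenase and so lowers the entry of glucose carbon into the citric acid cycle. At 18 months it read 7.69, 7.68, 7.67 and 7.82 in HdhQ150 mice, against 7.29, 7.31, 7.54 and 7.23 in wild-type mice, with no overlap. The means were 7.71 ± 0.07 in HdhQ150 and 7.34 ± 0.14 in wild type (SD, n = 4 each), and limma gave a difference of 0.37 (SE 0.0741, adjusted p = 0.0265). In a fit with the cortical marker mean as a covariate it was 0.35 (adjusted p = 0.0339). The call was lost without HdhQ150 mouse 383 (0.38, adjusted p = 0.0653), 412 (0.38, 0.0621) or 426 (0.34, 0.161) and without mouse WT-400 (0.35, 0.131), WT-401 (0.36, 0.0923) or WT-431 (0.33, 0.111). It was also lost with no sex term (0.37, adjusted p = 0.0704), in a fit of the 2 groups alone (0.37, 0.235) and with p adjusted over all probe sets (0.37, 0.0535).

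At the younger ages the genotypes were close in Pdk4, at -0.04 (95% interval -0.17 to 0.10) at 6 months and -0.03 (-0.16 to 0.10) at 12 months. The 18-month difference minus the 12-month one was 0.40 (0.20 to 0.60, unadjusted p = 0.000332, limma adjusted p = 1.0), and minus the 6-month one it was 0.41 (0.20 to 0.61, unadjusted p = 0.00033, adjusted p = 0.598). In these 3 comparisons of differences between ages, 0 of the 9 genes passed, where 0.00502% of all genes did between 12 and 6 months and 0% did in the other 2. At an unadjusted p under 0.05 there was 1 gene between 12 and 6 months (6.51% of all genes), 2 between 18 and 12 months (2.07%) and 1 between 18 and 6 months (8.17%). The comparison of 18 with 12 months passed for Pdk4 in wild type, where it fell, and not in HdhQ150. Wild-type mice at 12 months read 7.76, 7.72, 7.96, 7.88 and 7.93, all above the 18-month ones, and the difference of 18 from 12 months was -0.53 (SE 0.071, limma adjusted p = 2.5e-05). In HdhQ150 mice the lowest, median and highest at 12 months were 7.65, 7.82 and 7.95, which overlap the 18-month values, and the difference was -0.14 (adjusted p = 0.306).

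Before that, Pdk4 rose in both genotypes between 6 and 12 months. The rise was 0.26 in HdhQ150 mice (SE 0.0638, limma adjusted p = 0.00354), whose 6-month values were 7.64, 7.33, 7.55, 7.67 and 7.62. It was 0.25 in wild-type mice (SE 0.0671, limma adjusted p = 0.00669), whose 6-month values were 7.41, 7.57, 7.54, 7.60 and 7.71. With the cortical marker mean as a covariate these were 0.15 (adjusted p = 0.502) and 0.17 (adjusted p = 0.172), neither past the threshold. In wild type, Pdk4 was also lower at 18 than at 6 months (difference -0.28, SE 0.0733, adjusted p = 0.0202). That call was lost without mouse WT-400 (-0.26, adjusted p = 0.0733), WT-431 (-0.24, 0.0746) or WT-1020 (-0.25, 0.073), with no sex term (-0.22, 0.0891) and in a fit of the 2 groups alone (-0.27, 0.156). The only window of Pdk4 in the table, at chr6:5496279-5496528 on the - strand of GRCm38.p6, is shown for comparison with that of Sgk1. No capitals appear in it because the full pattern does not occur there, and neither does its arm AGAACA on either strand. In the Sgk1 window only the full match is in capitals, and a further arm outside it is left in lower case.
Pdk4: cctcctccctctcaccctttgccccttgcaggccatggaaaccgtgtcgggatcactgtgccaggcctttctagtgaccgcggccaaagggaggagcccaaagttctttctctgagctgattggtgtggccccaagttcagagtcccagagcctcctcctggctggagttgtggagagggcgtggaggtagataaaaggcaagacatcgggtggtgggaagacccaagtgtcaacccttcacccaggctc
Elements farther from the start lie outside this window, so nothing follows from it about the receptor.

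Striatal projection neuron markers, which define the main cell type of this tissue, averaged lower in HdhQ150 mice at all 3 ages. At 6 months their mean was 10.20 to 10.71 in HdhQ150 mice, against 10.55 to 10.88 in wild-type mice, with 0 of 8 past the threshold. The mean of the 8 measured was 9.84 to 10.42 in HdhQ150 mice at 18 months, against 10.35 to 10.64 in wild-type mice, and 2 of the 8 fell with 0 higher, Penk (-0.73) and Pde10a (-0.61). At 12 months it was 10.72 to 10.88 in HdhQ150 mice, against 10.99 to 11.15 in wild-type mice, with no overlap, and the same 2 fell, Penk (-0.51) and Pde10a (-0.49). Over all genes 0.135% passed at 18 months and 0.938% at 12 months. At 18 months oligodendrocyte markers (7 measured) averaged 9.82 to 10.21 in HdhQ150 mice, against 9.76 to 9.93 in wild-type mice, astrocyte markers (9) 9.26 to 9.45 against 9.28 to 9.46, and endothelial and mural markers (9) 7.97 to 8.11 against 7.89 to 8.01. In each of these lists 0 members passed in either direction at 18 months. Likewise 0 of 7 microglia, 7 choroid plexus, 4 ependymal, 5 thalamic neuron and 1 blood marker passed between the genotypes at 6, 12 or 18 months. The part of the projection neuron markers and of these lists in the Sgk1 and Pdk4 differences was not tested.

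Zbtb16 (probe set 10593225, chromosome 9) encodes a zinc finger repressor of transcription and had the widest range of the 9 genes, 7.72 to 9.30. It was lowest at 12 months in both genotypes. HdhQ150 mice read 8.58, 9.29, 8.78 and 9.30 at 18 months, against a lowest, median and highest of 7.72, 8.12 and 8.36 at 12 months, with no overlap. The difference was 0.91, or 1.88-fold (SE 0.174, limma adjusted p = 0.00119). Wild-type mice read 8.83, 9.27, 8.69 and 8.69 at 18 months, against 8.18, 8.16, 7.91, 8.11 and 8.17 at 12 months, again with no overlap. The difference was 0.74, or 1.68-fold (SE 0.177, limma adjusted p = 0.00831), and 0.61 without mouse WT-401, which did not pass (adjusted p = 0.0658).

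Between 6 and 12 months Zbtb16 fell in HdhQ150 mice, with a limma difference of -0.53 (SE 0.159, adjusted p = 0.0156). At 6 months HdhQ150 mice read 8.10, 8.91, 8.53, 8.72 and 8.67, and 8.10 overlaps the 12-month values. Without HdhQ150 mouse 1003 it was -0.39 and did not pass (adjusted p = 0.109), and in labelled females alone it was -0.42 (0.0831). In wild type it was -0.30 (adjusted p = 0.179), with 6-month values of 8.27, 7.87, 8.84, 8.32 and 8.63. Between 18 and 6 months in wild type the difference was 0.44 (adjusted p = 0.143), and 0.57 without mouse WT-1011, which passed (0.0443). The genotypes did not differ past the threshold at any age, with differences of 0.18 (95% interval -0.16 to 0.52), -0.05 (-0.38 to 0.27) and 0.12 (-0.26 to 0.49) at 6, 12 and 18 months.

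Cortical excitatory neuron markers followed the same ages as Zbtb16. Of 4 measured, 4 fell between 6 and 12 months in each genotype, and 4 in HdhQ150 and 3 in wild type rose between 12 and 18 months. Their mean ran from 7.66 to 8.68 at 6 months, 5.56 to 7.51 at 12 months and 7.96 to 8.90 at 18 months in HdhQ150 mice. In wild-type mice it ran from 7.94 to 8.80, 6.52 to 8.07 and 8.42 to 9.07 at those ages. With this mean as a covariate, a setting chosen after seeing the data, the Zbtb16 difference of 12 from 6 months in HdhQ150 was -0.01 (limma adjusted p = 0.99). The difference of 18 from 12 months was then 0.36 in HdhQ150 (adjusted p = 0.785) and 0.31 in wild type (adjusted p = 0.733). Most genes lost their call in these fits: over all genes the calls numbered 263 with the covariate and 4599 without it for 12 against 6 months in HdhQ150, 2 and 1154 for 18 against 12 months in HdhQ150, and 151 and 1171 for 18 against 12 months in wild type. In HdhQ150 mice the 12-month marker range lies wholly below those at 6 and 18 months, and in wild-type mice it lies wholly below that at 18 months. In those comparisons age and marker level cannot be told apart. Under the same covariate the rise of Sgk1 from 6 to 12 months in wild type was 0.33 (adjusted p = 0.122). The differences of 18 from 12 months in wild type for Pdk4 (-0.44, adjusted p = 0.0142) and Sgk1 (-0.68, adjusted p = 0.0248) were past the threshold. The marker ranges do not overlap in that comparison, so these fits do not separate age from marker level.

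**Figure D3:**
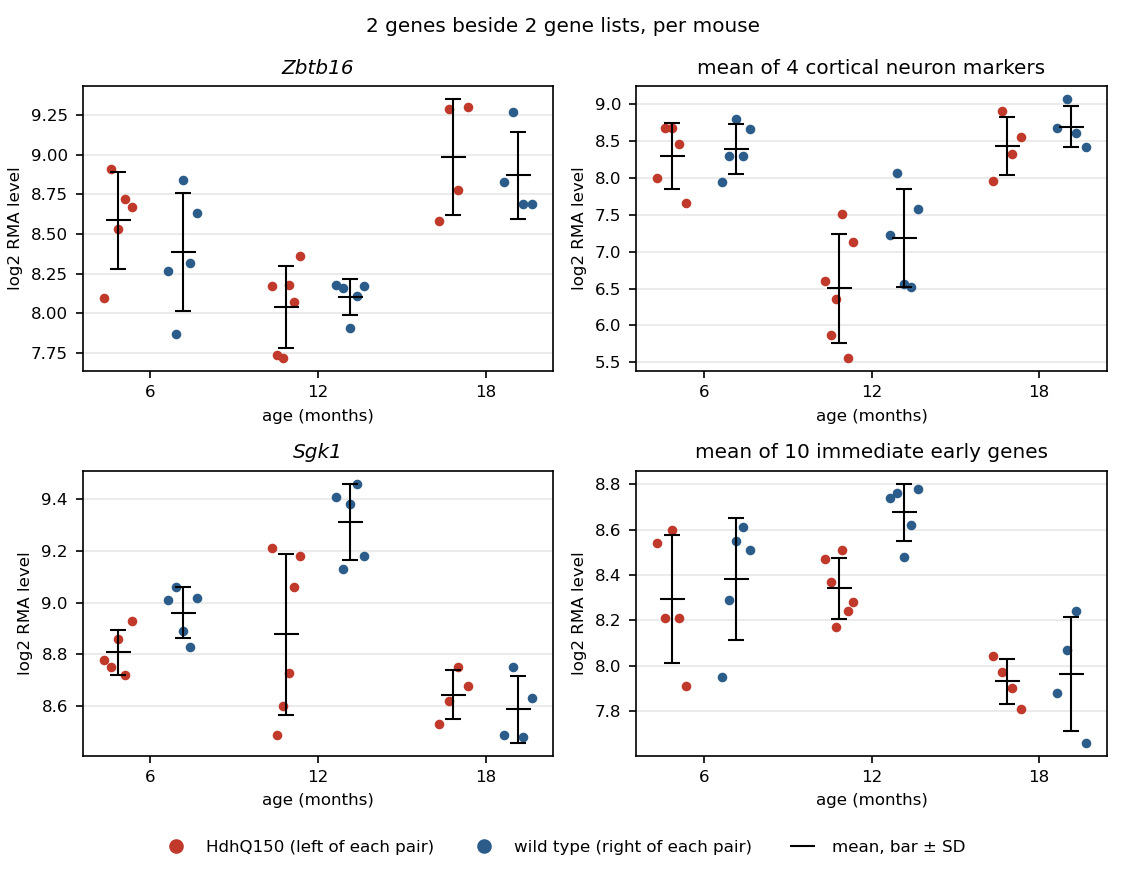
Log2 RMA level per mouse of Zbtb16 beside the mean of 4 cortical excitatory neuron markers (upper panels), and of Sgk1 beside the mean of 10 immediate early genes (lower panels), at 6, 12 and 18 months, HdhQ150 left of wild type, with group means and bars of 1 SD. Zbtb16 and the cortical marker mean are both lowest at 12 months, and Sgk1 and the immediate early gene mean are both highest in wild-type mice at 12 months (9.31 and 8.68). The mean of 8 striatal projection neuron markers, not drawn here, was also highest in that group (11.08).

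Errfi1 (probe set 10510574, chromosome 4) encodes a feedback inhibitor of the epidermal growth factor receptor family. It was lower at the later ages in wild type. Wild-type mice read 8.75, 8.84, 9.09, 9.04 and 8.92 at 12 months, against 9.18, 9.24, 9.21, 9.12 and 9.22 at 6 months, with no overlap. The difference was -0.26 (SE 0.0638, limma adjusted p = 0.00438), and -0.14 with array weights, which did not pass (0.0649). The lowest of these values, 8.75, is that of mouse WT-454 and the lowest of all mice. In fits that leave out 1 mouse the difference ran from -0.30 to -0.18 and passed in each (adjusted p of 0.0419 or below). At 18 months wild-type mice read 8.82, 9.04, 8.79 and 8.93, again all below the 6-month values, and the limma difference was -0.28 (SE 0.0697, adjusted p = 0.0152). This did not pass without mouse WT-400 (-0.26, adjusted p = 0.0632) or WT-414 (-0.25, 0.06), or in a fit of the 2 groups alone (-0.29, 0.0764).

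In HdhQ150 mice Errfi1 differed by -0.16 between 12 and 6 months (limma adjusted p = 0.0603). It passed there without HdhQ150 mouse 451 (-0.19, adjusted p = 0.0229) or mouse WT-454 (-0.17, 0.0185) or WT-488 (-0.16, 0.0482) (all groups share 1 estimate of the spread and of the sex term). It passed too in labelled females alone (-0.19, 0.0409), in a fit of the 2 groups alone (-0.17, 0.0263), without mice WT-454 and 1023 (-0.17, 0.0243) and with array weights (-0.16, 0.0146). The 18-month HdhQ150 values were 9.01, 9.01, 9.04 and 9.01, all below the 6-month range of 9.16 to 9.29 (difference -0.17, adjusted p = 0.143). The genotype difference was 0.01 (95% interval -0.12 to 0.15), 0.11 (-0.01 to 0.24) and 0.12 (-0.02 to 0.27) at 6, 12 and 18 months, with limma adjusted p of 0.948, 0.64 and 0.94. In fits that leave out 1 mouse the 12-month genotype difference ran from 0.04 to 0.15.

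Plin4 (probe set 10451932, chromosome 17) encodes a coat protein of lipid droplets. At 18 months it read 7.45, 7.30, 7.44 and 7.61 in HdhQ150 mice, against 7.15, 7.09, 7.15 and 7.24 in wild-type mice, with no overlap. The difference was 0.29 (95% interval 0.04 to 0.54), and its limma adjusted p was 0.719. Averaged over the 3 ages it was 0.15 (adjusted p = 0.28). Without mouse WT-454, whose Plin4 of 7.74 was the highest of all 29 mice, the average was 0.19 and passed (adjusted p = 0.0379). It also passed with mice WT-454 and 1023 left out (0.18, 0.0445) and with array weights (0.19, 0.0202). Fat cell markers (5 measured, Plin1 and Adipoq among them) averaged 5.98 to 6.16 in HdhQ150 mice at 18 months, against 6.02 to 6.28 in wild-type mice. These levels lie below the median of all genes, 7.18, and the part of fat cells in the Plin4 difference was not tested. Between 12 and 6 months in wild type, Plin4 differed by 0.20 (adjusted p = 0.18), by 0.30 without mouse WT-1011, which passed (0.0309), by 0.04 without mouse WT-454 (0.832) and by -0.01 in labelled females alone (0.973). In HdhQ150 mice the difference of 18 from 6 months was 0.32 (adjusted p = 0.116), and it passed without mice WT-454 and 1023 (0.32, 0.0494) and with array weights (0.35, 0.0112). Between 12 and 6 months it was 0.18 in HdhQ150 mice (adjusted p = 0.211), and 0.22 with array weights, which passed (0.0365).

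Tsc22d3 (probe set 10606989, chromosome X) encodes GILZ, a leucine zipper protein that restrains inflammatory transcription. It had no call. Its genotype difference was 0.13 (95% interval -0.05 to 0.30), -0.05 (-0.21 to 0.11) and 0.15 (-0.04 to 0.34) at 6, 12 and 18 months. The 18-month HdhQ150 mice read 7.60, 7.77, 7.81 and 7.61, against 7.43, 7.70, 7.52 and 7.54 in wild-type mice, which overlap. In wild type the 12-month values, 7.48 to 7.64, lay just above the 6-month values, 7.15 to 7.48, with no overlap before rounding, and the difference of 0.20 did not pass (limma adjusted p = 0.076). It passed without HdhQ150 mouse 453 (0.21, adjusted p = 0.0331) and with array weights (0.23, 0.0385). In HdhQ150 mice the difference of 18 from 6 months was 0.22 (adjusted p = 0.162), and 0.24 with array weights, which passed (0.0461).

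Counted by overlap of single mice, 0 of the 9 genes separated 12 from 6 months in HdhQ150 (14.0% of all genes), 1 separated 18 from 12 months (8.18%) and 2 separated 18 from 6 months (9.32%). In wild type 4 separated 12 from 6 months (13.3% of all genes), 3 separated 18 from 12 months (6.67%) and 2 separated 18 from 6 months (9.09%).

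Other genes that glucocorticoids induce in various tissues showed few genotype differences. Of 21 measured of 22 listed, 0 passed at 6 months and at 18 months, and 1 fell at 12 months, where 0.938% of all genes passed. That gene was Per1, a clock gene that glucocorticoids also induce, at 9.04 ± 0.16 in HdhQ150 and 9.47 ± 0.13 in wild type (SD, n = 6 and 5; difference -0.41, limma adjusted p = 0.0243). The list's median differences were 0.0439, 0.00104 and 0.0193 at 6, 12 and 18 months. With age 0 of the 21 rose in any comparison. Mt2 and Mt1, which encode metal-binding metallothioneins, fell between 6 and 18 months in HdhQ150 (-0.74 and -0.46) and in wild type (-0.85 and -0.65), and so did Per1 (-0.53 in each), for 3 of 21 in each genotype. Over all genes 4.65% passed there in HdhQ150 and 6.27% in wild type. Between 18 and 12 months 0 fell in HdhQ150 (5.79% of all genes passed) and 3 fell in wild type (5.87%). The 3 were Per1 (-0.55), Mt1 (-0.28) and Dusp1 (-0.61, limma adjusted p = 0.0271), a phosphatase that turns off MAP kinases. Between 12 and 6 months 6 fell in HdhQ150 (Mt2, Bcl6, Mt1, Per1, Irs2 and Fam107a) and 2 in wild type (Mt2 and Mt1), where 23.1% of all genes passed in HdhQ150 and 25.7% in wild type, so the first count is near that share and the second below it. Bcl6 is a transcriptional repressor and Irs2 an insulin receptor substrate, at -0.35 and -0.30.

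**Figure D4:**
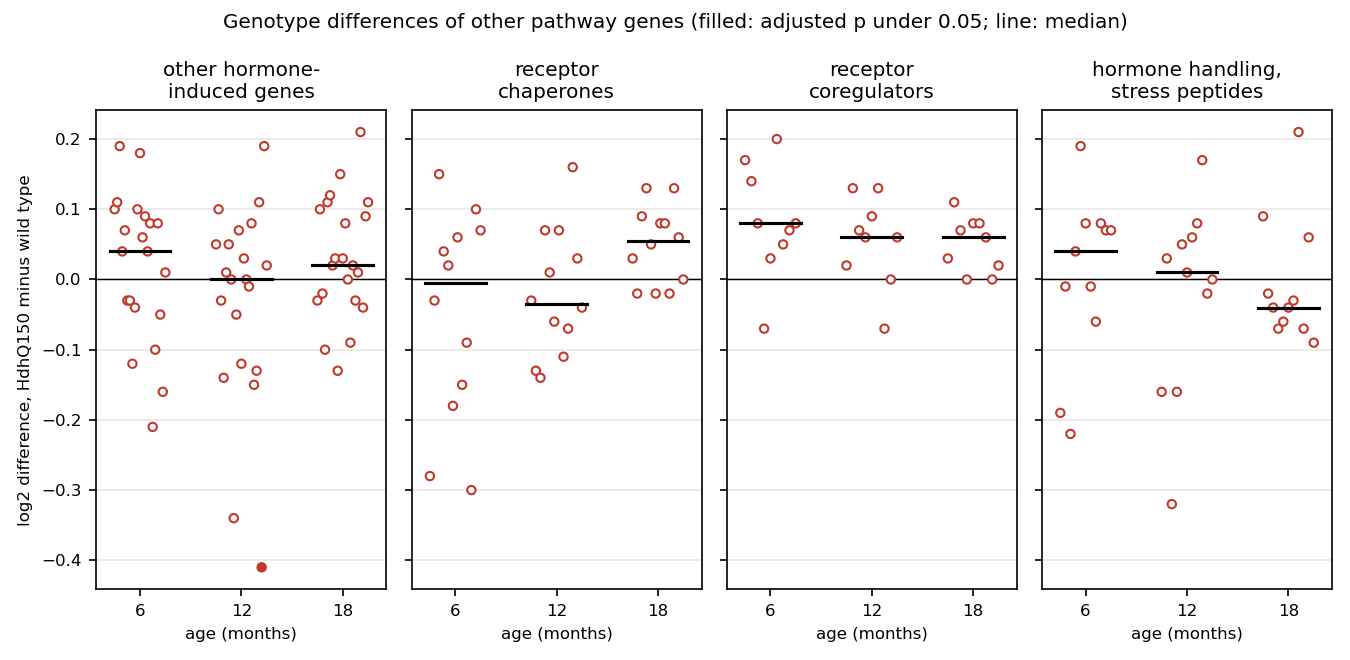
Log2 difference, HdhQ150 minus wild type, of each measured gene of 4 lists (other hormone-induced genes, receptor chaperones, receptor coregulators, hormone handling and stress peptides) at 6, 12 and 18 months, with a line at each median and a filled point where the limma adjusted p was under 0.05. Per1 at 12 months (-0.41) is the only filled point.

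Genes that act around the receptor did not pass between genotypes at any single age. Their calls between 12 and 6 months stand beside 23.1% of all genes called in HdhQ150 and 25.7% in wild type, and show nothing particular to them. Between 18 and 12 months 5.79% of all genes passed in HdhQ150 and 5.87% in wild type. The shares between 18 and 6 months were 4.65% and 6.27%. Of 12 measured chaperones and cochaperones, 0 passed between genotypes, and their median differences were -0.00641, -0.0346 and 0.0568 at 6, 12 and 18 months. With age, 3 fell in HdhQ150 and 4 in wild type between 12 and 6 months, 1 rose in each between 18 and 12 months, and 1 fell in HdhQ150 and 0 in wild type between 18 and 6 months. Hsp90aa1 and Stip1, which help fold the receptor into its hormone-binding form, fell between 6 and 12 months in HdhQ150 (-0.29 and -0.28) and in wild type (-0.28 and -0.21). Ppp5c, a phosphatase that shares the Hsp90 site with Fkbp5, fell between 6 and 12 months (-0.17 in HdhQ150 and -0.19 in wild type) and rose between 12 and 18 months (0.30 and 0.26). Ptges3, which encodes the p23 cochaperone, fell between 6 and 12 months in wild type (-0.46). Of 9 measured coregulators, 0 passed at a single age, with median differences of 0.0799, 0.0622 and 0.0583. Averaged over the ages, 2 were higher in HdhQ150 mice, where 3.06% of all genes passed. These were Ncoa2 (0.14, limma adjusted p = 0.0123) and Crebbp (0.13, adjusted p = 0.0224). Ncoa2 is a receptor coactivator and Crebbp an acetyltransferase it recruits. With age Carm1, an arginine methyltransferase, fell in HdhQ150 at 12 and 18 months relative to 6 (-0.28 and -0.29), and Med1, a Mediator subunit, fell in wild type between 12 and 6 months (-0.33), with 0 other calls.

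Of 11 genes for corticosteroid handling and stress peptides, 0 passed between genotypes at any age, with median differences of 0.043, 0.0118 and -0.0355 at 6, 12 and 18 months. Crhr1, a receptor for corticotropin-releasing hormone, Crhbp, which binds that hormone, and Crh itself fell between 6 and 12 months in HdhQ150 (-0.31, -0.53 and -0.33), 3 of 11 in a comparison where 23.1% of all genes passed. Crhbp rose between 12 and 18 months in HdhQ150 (0.60) and in wild type (0.50), as did Crhr1 in wild type (0.34). Over all genes 5.79% passed there in HdhQ150 and 5.87% in wild type. Hsd11b1, which regenerates active hormone in tissue, fell between 6 and 12 months in wild type (-0.33, limma adjusted p = 0.0211), 1 of 11 where 25.7% of all genes passed. These are ages between which the cortical marker mean also moved, and its part in them was not tested.

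Within groups the 9 genes did not vary as a block. Over their 36 pairs, the correlation of deviations from the group means over 29 arrays had a median of 0.20 and ran from -0.57 for Nr3c2 with Plin4 to 0.65 for Nr3c1 with Nr3c2. Without mouse WT-454 the median was 0.17 and the range -0.28 to 0.52. These points share their arrays and the normalization, and the values are a description. The same measure was taken between each of the 9 and the genes outside them, leaving out predicted gene, clone and RIKEN names. The genes given next are those with the highest values, picked from all that were left. Those most like Zbtb16 were Satb1, Adcy1 and Garnl3 (r = 0.82 each), and those most like Sgk1 were Smco3, Zscan29 and Trappc5 (0.61 each). Those most like Pdk4 were Cage1 (0.67), Mfsd1 (0.66) and Id3 (0.62), and those most like Errfi1 were Cript (0.76), Scd1 (0.71) and Septin4 (0.68). For Fkbp5 they were Ube2z (0.77), Sae1 (0.76) and Pcgf3 (0.75), and for Tsc22d3 Pdia4 (0.78), Wdr66 (0.71) and Ccnd3 (0.69). For Nr3c2 they were Galc (0.93), Wtap (0.92) and Cct7 (0.90), for Nr3c1 Usp32 (0.90), Tlcd4 (0.89) and Syncrip (0.89), and for Plin4 Ciita (0.86), Krtap17-1 (0.86) and Nkx2-6 (0.85). Without mouse WT-454 the first of each was 0.89 for Galc, 0.84 for Usp32 and 0.77 for Ciita.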

How the data were processed

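Gene expression was measured in 29 mice, grouped by genotype and age from the labels. Per the labels' protocols, RNA was extracted with TRIzol and chloroform and biotin-labelled. The deposited values are on a log2 scale, and the submitters' processing notes name RMA and Affymetrix Expression Console as the authors' tools, with no version. Of 35556 probe sets, 21789 had 1 symbol (names updated through RefSeq, GRCm38.p6), and the one with the highest mean was kept per gene. All 19938 genes were fitted with limma 3.58.1 in R 4.3.3 (eBayes with trend) with a mean per group and a term for labelled sex (22 residual degrees of freedom). P-values are two-sided and adjusted by Benjamini-Hochberg at 0.05. Differences come from this fit, so they can depart slightly from differences of plain means. Replicates are separate animals. The members, lists and tests were chosen with earlier results of these data known. The text names all members, and from the other lists genes past the threshold; marker lists are given mostly as counts. Scripts were tested on simulated data.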

Additional observations from a re-analysis of the deposited data

Results flagged for a closer look

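Within the 54 combinations of a gene and a group, 3 held a mouse set apart from the rest of its group by Dixon's criterion, which chance alone meets in about 5% of groups. Pdk4 in HdhQ150 mouse 426 at 18 months was 7.82, against 7.67 to 7.69 in the other 3 mice of that group (gap over range 0.891, critical value 0.829). Zbtb16 in mouse WT-488 at 12 months was 7.91, against 8.11 to 8.18 in the other 4 (0.741, critical value 0.71). Errfi1 in HdhQ150 mouse 415 at 18 months was 9.04, and the others all rounded to 9.01 (0.863, critical value 0.829).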

How the results depend on the processing

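Beside the reported fit, 41 fits were made, 29 of which leave out 1 mouse. Over 5134 values of a gene, a comparison and another setting, 5074 kept their direction and side of the threshold or had no call in either, 36 lost a call and 24 gained one, and 0 called values changed sign. Of 4577 values uncalled in both, 162 changed sign. The number of the 9 genes past the threshold for genotype at 12 months was 1, and 0 in labelled females alone, in the 2 groups alone and over all probe sets. At 18 months it was 1, and 0 with no sex term, in the 2 groups alone and over all probe sets. Averaged over ages it was 0, and 1 without mice WT-454 and 1023 or with array weights. In HdhQ150, 12 against 6 months, it was 2, and 4 with array weights or 0 with the cortical covariate, and 18 against 12 months it was 1, and 0 with that covariate. In HdhQ150, 18 against 6 months, it was 0, and 1 without mice WT-454 and 1023 or 2 with array weights. In wild type, 12 against 6 months, it was 3, and 1 with the cortical covariate, and 18 against 6 months it was 2, and 0 in the 2 groups alone. Leaving out 1 mouse gave 0 to 1 for genotype at 12 and at 18 months and averaged, 1 to 3 for HdhQ150 at 12 against 6 months, 2 to 4 and 2 to 3 for wild type at 12 against 6 and 18 against 12 months, and 0 to 4 for wild type at 18 against 6 months. The covariate was added after seeing the data. The causes were not tested, though the 2 groups alone leave fewer arrays and all probe sets mean more tests. Counts over all genes, from which the background percentages come, moved more. Without mice WT-454 and 1023 they were 868 for genotype at 6 months (reported 5), 43 at 18 months (27) and 1644 averaged (610). With array weights they were 1330 at 6 months and 656 at 12 months (187). In the 2 groups alone they were 103 at 12 months and 1 at 18 months, and with the cortical covariate 2 for HdhQ150 at 18 against 12 months (1154). No paired analysis was possible because replicate numbers are mouse numbers that no 2 groups share.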
